A study of Mus musculus with 2 samples.

Results

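The regions described here are 1059 strong ATAC-seq peaks at the ends of protein-coding genes that were called in R848-treated mouse macrophages and overlapped no peak called in untreated ones. They were chosen from the 37725 peaks of the R848 list by 4 conditions: an autosome, a −log10 q of at least 3, no overlap by even 1 bp with any of the 77060 peaks of the untreated list, and a position within 1 kb of either end of a protein-coding RefSeq gene on mm10. They made up 2.81% of the R848 list and touched 1216 of 20665 autosomal protein-coding genes (5.88%), and 161 of the peaks reached more than 1 gene. The strength of the peaks and their absence from the untreated list are therefore how the peaks were picked, and the shares built on them are given as descriptions without a test.

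Both libraries came from bone marrow-derived macrophages (BMDMs), primary cells grown out of wild-type mouse marrow in 20 ng/ml M-CSF, the growth factor that drives marrow progenitors towards macrophages. The untreated group (0 h) and the R848 group (100 ng/ml for 2 h) each held 1 library. Strain, age and sex of the mice and any pooling of animals are not given in the sources used here. With 1 library per group no difference between the conditions has a replicate check, and the intervals below cover counting error only.

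R848 (resiquimod) is a small synthetic ligand of the endosomal receptor TLR7, which in nature senses single-stranded RNA. TLR7 signals through the adaptor MyD88 to NF-kB, AP-1 and interferon regulatory factors, which switch on primary response genes within minutes to hours, then cytokines, chemokines and, through secreted interferon, the interferon-stimulated genes. In ATAC-seq the transposase Tn5 inserts adapters into accessible DNA. The start of an active gene is usually accessible because nucleosomes are displaced there, and promoters rich in CpG dinucleotides are commonly open in many cell types whether or not a signal is present, whereas promoters poor in CpG, common among inflammatory genes, more often open with the signal.

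The 250 bases before the start of 10 genes under such peaks are printed to show what kinds of promoter they cover. Sequences are from RefSeq on GRCm38.p6 (mm10), 5′ to 3′ on the strand of the gene, and end at the base before the gene start. Capitals mark letters that match any of 13 short motifs on either strand (listed with their shares among promoters further on), and a match is only a match of letters. The first 6 are the 6 highest-fold peaks at genes of the inflammatory response lists that had a promoter sequence. They are Cxcl2 (chr5:90903649-90903898, plus strand), Ptgs2 (chr1:150099781-150100030, plus strand), Dusp5 (chr19:53528895-53529144, plus strand), Ebi3 (chr17:55952373-55952622, plus strand), Irf1 (chr11:53769764-53770013, plus strand) and Bst2 (chr8:71537473-71537722, minus strand).
Cxcl2: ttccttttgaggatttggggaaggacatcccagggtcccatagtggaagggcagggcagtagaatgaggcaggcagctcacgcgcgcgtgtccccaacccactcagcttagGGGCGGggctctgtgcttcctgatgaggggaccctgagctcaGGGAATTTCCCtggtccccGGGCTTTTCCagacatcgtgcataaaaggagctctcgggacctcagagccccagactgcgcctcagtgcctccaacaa
Ptgs2: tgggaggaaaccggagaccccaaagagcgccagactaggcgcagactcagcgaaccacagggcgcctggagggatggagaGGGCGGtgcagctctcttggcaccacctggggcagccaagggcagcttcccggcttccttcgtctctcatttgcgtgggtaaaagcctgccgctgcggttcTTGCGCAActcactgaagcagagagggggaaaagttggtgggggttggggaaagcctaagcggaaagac
Dusp5: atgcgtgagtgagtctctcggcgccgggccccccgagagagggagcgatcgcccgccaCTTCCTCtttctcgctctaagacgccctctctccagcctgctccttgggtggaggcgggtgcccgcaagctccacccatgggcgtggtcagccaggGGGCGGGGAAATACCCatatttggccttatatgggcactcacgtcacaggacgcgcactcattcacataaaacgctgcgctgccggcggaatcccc
Ebi3: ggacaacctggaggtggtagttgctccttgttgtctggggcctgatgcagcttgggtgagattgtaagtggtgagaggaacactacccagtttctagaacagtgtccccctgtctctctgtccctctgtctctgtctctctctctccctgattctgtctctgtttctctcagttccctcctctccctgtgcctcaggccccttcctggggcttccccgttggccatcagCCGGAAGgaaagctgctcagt
Irf1: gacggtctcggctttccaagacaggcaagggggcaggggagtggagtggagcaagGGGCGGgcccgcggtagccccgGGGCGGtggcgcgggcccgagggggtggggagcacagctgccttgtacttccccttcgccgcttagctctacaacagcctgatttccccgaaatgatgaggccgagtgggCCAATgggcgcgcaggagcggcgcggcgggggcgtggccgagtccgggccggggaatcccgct
Bst2: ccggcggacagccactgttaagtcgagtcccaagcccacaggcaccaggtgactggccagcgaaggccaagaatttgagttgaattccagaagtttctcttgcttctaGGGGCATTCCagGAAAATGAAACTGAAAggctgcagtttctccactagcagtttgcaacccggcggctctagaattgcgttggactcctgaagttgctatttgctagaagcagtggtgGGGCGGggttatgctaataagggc

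Acod1 (chr14:103046762-103047011, plus strand) and Gbp2 (chr3:142620413-142620662, plus strand) were added after their values were seen, as response genes with few CpGs.
Acod1: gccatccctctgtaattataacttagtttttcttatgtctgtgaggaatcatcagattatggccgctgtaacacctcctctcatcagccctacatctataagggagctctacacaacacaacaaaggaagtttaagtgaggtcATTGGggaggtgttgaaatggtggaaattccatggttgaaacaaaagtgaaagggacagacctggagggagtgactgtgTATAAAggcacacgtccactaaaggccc
Gbp2: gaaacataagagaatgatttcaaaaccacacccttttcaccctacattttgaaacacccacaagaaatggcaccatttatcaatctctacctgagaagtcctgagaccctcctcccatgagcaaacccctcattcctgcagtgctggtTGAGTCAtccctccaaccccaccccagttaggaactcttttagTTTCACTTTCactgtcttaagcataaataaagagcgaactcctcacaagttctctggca

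Esf1 (chr2:140170559-140170808, minus strand), which shares its promoter with Ndufaf5, and Rsu1 (chr2:13271416-13271665, minus strand) stand for the strongest peaks of the set.
Esf1: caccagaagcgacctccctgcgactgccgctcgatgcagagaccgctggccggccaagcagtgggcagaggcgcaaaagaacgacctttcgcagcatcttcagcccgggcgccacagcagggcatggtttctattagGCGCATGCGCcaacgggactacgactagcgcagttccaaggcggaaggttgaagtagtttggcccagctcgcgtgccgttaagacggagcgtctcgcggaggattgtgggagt
Rsu1: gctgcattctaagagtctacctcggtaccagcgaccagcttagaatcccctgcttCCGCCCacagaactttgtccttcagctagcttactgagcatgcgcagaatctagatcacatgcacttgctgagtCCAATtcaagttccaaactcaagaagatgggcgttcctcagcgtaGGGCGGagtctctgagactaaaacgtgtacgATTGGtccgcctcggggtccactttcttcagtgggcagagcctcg

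Cxcl2 had 3 matches to the NF-kB letters (GGG and TTCC parted by 3 bases of any kind) in these bases, beginning 97, 96 and 78 bases before the start, the first 2 being overlapping matches on opposite strands. Bst2 had 1 NF-kB match at 142 bases and 2 matches to the interferon-response letters (GAAA and GAAA parted by 2 bases) at 130 and 124 bases. Gbp2 had an interferon-response match at 59 bases and an AP-1 match (TGANTCA) at 102 bases, while Acod1 carried a TATA box (TATAAA) at 28 bases. In the strongest peak, the Esf1 promoter held 1 NRF1 match (GCGC and TGCGC parted by 1 base) and Rsu1 held CCAAT boxes and SP/KLF matches (GGGCGG). CpG content varied among these promoters. The ratio of observed to expected CpGs over the 300 base window (250 bases before to 50 after the start) was 0.917 for Esf1 and 0.912 for Irf1. It was 0.147 for Gbp2, 0.121 for Acod1 and 0.0866 for Ebi3, of which Gbp2 and Acod1 were picked for few CpGs. Between these lay Dusp5 (0.84), Ptgs2 (0.617), Rsu1 (0.571), Bst2 (0.516) and Cxcl2 (0.399).

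The libraries themselves differed in ways that touch every comparison below. The untreated list was the longer, yet strong peaks lay at gene ends far less often in it: 2498 of 10431 strong autosomal untreated peaks (23.9%) against 4898 of 9513 R848 peaks (51.5%). Solving the deposited fold and p-value for each summit gave a genome-wide background of 0.968 tags in the untreated list and 1.36 in the R848 list, a ratio of 1.40, where a tag is a read or fragment piled up at the summit. The lowest pileup called was 4 tags in the untreated list and 5 in the R848 list. Of the macrophage markers, 8 of 18 had a strong untreated peak and 9 of 18 a strong R848 peak in or within 1 kb of the gene (Adgre1, Cd68, Lyz2, Cebpa and Fcgr3 in both), while Cd14, Fcgr1, Irf8 and 3 others had no strong peak in either. Neutrophil markers had 0 of 8 and 3 of 8, T and NK cell markers 0 and 1 of 9, erythroid markers 0 and 1 of 6, dendritic cell markers 2 and 3 of 6, B cell markers 1 and 1 of 6, and stromal markers none of 6. The part of the library difference in the results below was not tested. In bulk cells a site open in few cells and a site weakly open in all cells cannot be told apart.

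Of the 4898 strong autosomal R848 peaks at gene ends, 1059 had no untreated peak over them (21.6%, 95% Wilson interval 20.5 to 22.8%). Away from gene ends the count was 2185 of 4615 (47.3%, 45.9 to 48.8%), and over all autosomal R848 peaks, weak ones included, 69.5% had no untreated partner. The opposite direction was rare at gene ends: 134 of 2498 strong untreated peaks there (5.36%) had no R848 peak over them, against 69.6% of those elsewhere. The first of these shares depends on the threshold and on what is called an untreated partner: it was 54.9% with only untreated peaks of −log10 q 3 or more, 33.3% with the untreated list cut to the length of the R848 list, 38.6% where an untreated peak had to cover at least 50% of the R848 peak, and 13.9% for R848 peaks of −log10 q 5 or more. A strong R848 peak at a gene end was, with the full untreated list, thus usually also called before treatment, and strong untreated gene-end peaks were seldom missing from the R848 list.

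The share without an untreated partner fell with the strength of the peak. Among gene-end peaks with a −log10 q of 3 to 4 it was 49.2% (317 of 644), at 6 to 10 it was 21.7% (290 of 1335), and at 20 or more it was 0.658% (4 of 608). Peaks elsewhere were higher in each class, with 64.9% (878 of 1353), 38.9% (395 of 1015) and 1.56% (5 of 321), although the 2 intervals of the top class overlap. The plot of this share by strength shows both series descending together.

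**Figure D1:**
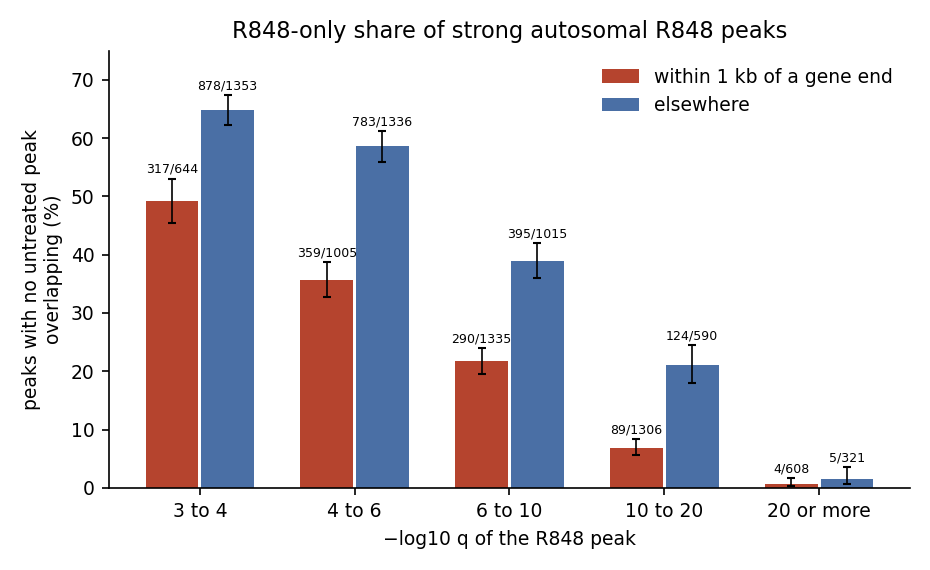
Share of strong autosomal R848 peaks overlapped by no untreated peak (y axis, %) in 5 classes of −log10 q (x axis), for peaks within 1 kb of a protein-coding gene end (red) and elsewhere (blue); bars give the share, error bars the 95% Wilson interval, and labels the counts. At gene ends the share drops from 49.2% in the weakest class to 0.658% in the strongest.

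The R848-only gene-end peaks were accordingly modest. Their fold enrichment over background, as the authors' peak caller gave it, ran from 3.68 to 10.7 with a median of 5.09, and their −log10 q from 3.04 to 22.6 with a median of 4.83. The 3839 gene-end peaks that did overlap an untreated peak, called shared from here on, had a median fold of 6.87. Summits held 10 to 32 tags with a median of 12, against a median of 18 for the shared peaks, and 571 of the 1059 (53.9%) held 10 to 12. Widths ran from 200 to 1433 bp with a median of 413 bp, against 560 bp. Scaled to the untreated background, the lowest pileup of 10 tags corresponds to 7.12 tags and the median of 12 to 8.55. Summits of the untreated list held at least 4 tags, with a median of 7 and quartiles of 6 and 9. This scaling uses the genome-wide background alone and assumes the same extension length in both libraries. The part of sequencing depth in the absence from the untreated list was not tested. At the selection limit, Cln6, Plekha4 and Rasd2 lay just inside (−log10 q 3.04, fold 4.37, 10 tags) and Abca13, Pcgf5 and Mex3a just outside (−log10 q 2.99, fold 4.33, 10 tags).

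By selection, none of these peaks overlapped an untreated peak. The nearest untreated peak was a median of 14255 bp away (range 1 to 145332 bp), against 12411 bp for strong R848-only peaks elsewhere. For 104 of the 1059 (9.82%) it was within 1 kb, close to the 9.15% of strong R848-only peaks elsewhere. Syvn1, which encodes a ubiquitin ligase of the endoplasmic reticulum, had an untreated peak 3 bp from its R848 peak, and Mcm5, a subunit of the replicative helicase, 533 bp. For 93 peaks an untreated peak lay elsewhere in the same gene-end window, and for 91 at the other end of the gene.

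The 12 strongest peaks of the set had folds from 9.32 to 10.7. At the promoter between Ndufaf5 (an assembly factor of respiratory complex I) and Esf1 (a nucleolar protein of ribosome production), chr2:140170397-140170998, the R848 fold was 10.7 at 30 tags, with the nearest untreated peak 37879 bp away. Sec14l2 (a lipid-transfer protein) had a fold of 10.5 at 32 tags at chr11:4096534-4096900, 335 bp outside the end of the gene and not at its start. It was the only 1 of the 12 strongest peaks whose nearest gene end was known to be the 3′ end. Virma, part of the enzyme complex that methylates adenosines in mRNA, had a fold of 10.1 at chr4:11485651-11486182.

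Close behind came Rsu1 (a focal adhesion protein, fold 10, chr2:13270782-13271637), Josd2 (a deubiquitinase, fold 10), Lsm4 (an RNA-binding subunit of the splicing and decay machinery, 9.94), Cfap36 (a cilium protein, 9.93) and Sf3b1 (a core spliceosome subunit, 9.86, chr1:55027171-55027700). Serinc1, Gpatch8, Wdr36 and Mfn1, the last a mitochondrial fusion protein, followed with folds of 9.75, 9.66, 9.49 and 9.32. All 12 held 21 to 32 tags. Of these 12, 5 fall in lists of RNA processing, mitochondrial or ubiquitin genes and the others in no list used here.

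Peaks at response genes had the same median fold as the whole set, 5.09. Over the 7 response lists (primary TLR response, NF-kB pathway, cytokines and mediators, chemokines, interferon response, TLR signalling and macrophage identity) there were 45 such peaks, and the 30 of highest fold ran from 4.90 at Itgb2 to 7.32 at Cxcl2. Cxcl2, a neutrophil-attracting chemokine, had 28 tags over chr5:90903350-90904141 with the summit 128 bp before the start, and no untreated peak within 7113 bp. Ptgs2, the inducible cyclooxygenase of prostaglandin synthesis, had a fold of 7.03 at 17 tags (chr1:150099587-150100312), its nearest untreated peak 33389 bp away. Of all 45, 22 were above that median, 4 were at it and 19 were below.

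**Figure D2:**
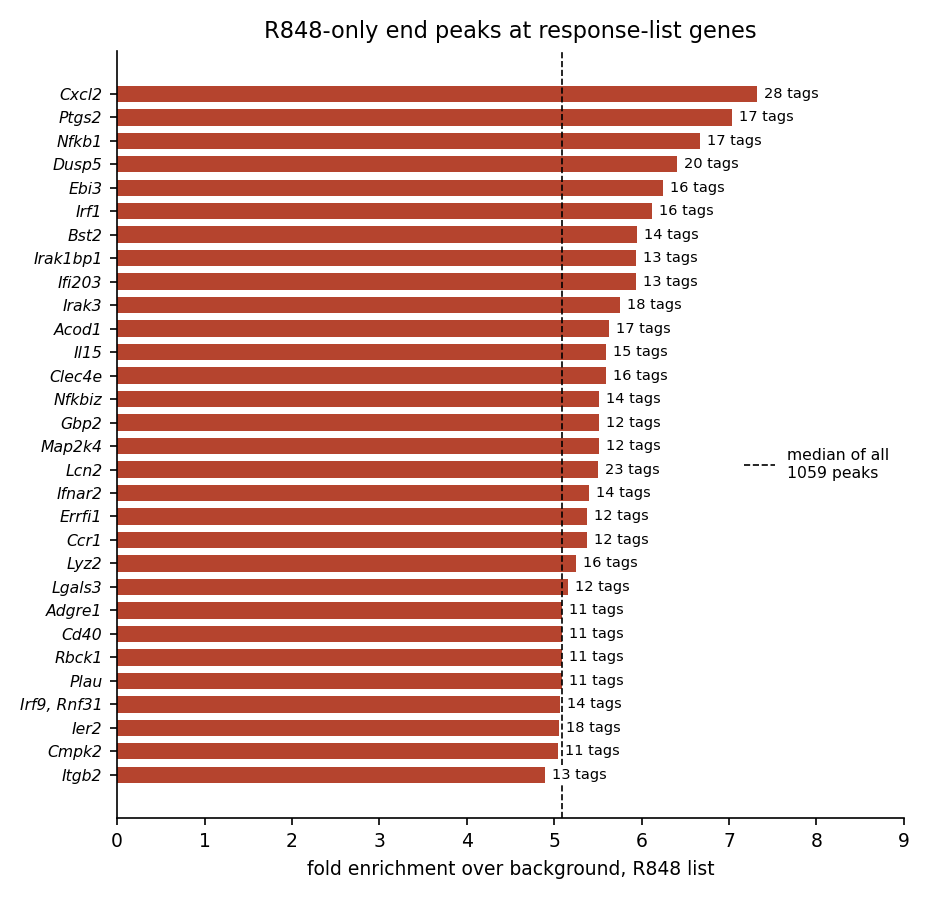
Fold enrichment over background in the R848 list (x axis) of the 30 highest-fold R848-only gene-end peaks at genes of the 7 response lists (y axis, listed gene or genes under each peak); labels give the tags at the summit and the dashed line the median of all 1059 peaks, 5.09. Folds run from 4.90 at Itgb2 to 7.32 at Cxcl2, and no untreated peak overlaps any of them, by selection.

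Cytokines and mediators were the list in which a strong gene-end peak was most often R848-only. Of its 51 genes, 12 had any strong R848 peak at an end, and in 11 of them (91.7%) the peak was R848-only, where 21.4% of all genes with such a peak were (1216 of 5692); these shares come from the contrast that chose the peaks. The 11 genes carry 10 peaks, because the neighbours Tnf and Lta share 1. Beside Ptgs2 they were Ebi3 (a subunit of heterodimeric cytokines, fold 6.25), Acod1 (the enzyme that makes itaconate, 5.62), Il15 (5.59), Lcn2 (the iron-scavenging lipocalin, 5.50 at 23 tags), Cd40 (the co-stimulatory receptor, 5.09) and Plau (urokinase, 5.09). The remaining peaks were below the median and are named after their values were seen: Tnf at 4.63 with 18 tags and an untreated peak 759 bp away, Gdf15 at 4.55 with an untreated peak 66 bp away, and Edn1 (endothelin) at 4.51. Il10, the anti-inflammatory cytokine, was the only gene of the list whose strong peak was shared. The other 39 genes had no strong R848 peak at either end, so the pattern describes 12 genes, not the list.

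Among 32 chemokine and receptor genes, 7 had a strong R848 end peak and 4 of these were R848-only (57.1%, against 21.4% of all genes). They were Cxcl2, the receptor Ccr1 (fold 5.37) and, named after their values were seen, the monocyte attractant Ccl2 (4.45) and the scavenger receptor Ccrl2 (4.38). Ccl3, Ccl4 and Cxcr4 had shared peaks. In the interferon response list the count was 12 of 23 (52.2%). Its leading genes were Irf1 (a transcription factor of the interferon pathway, fold 6.12 at 16 tags, chr11:53769832-53770292), Bst2 (tetherin, which holds budding virions at the cell surface, 5.95), Ifi203 (5.93) and Gbp2 (a GTPase that attacks pathogen vacuoles, 5.51). Ifnar2, a chain of the type I interferon receptor, shares its peak (5.40) with its neighbour Il10rb, and Irf9 shares its peak (5.07) with Rnf31. Ifi203 and Gbp2 have close relatives in the genome, and since the handling of reads that map to several places is not given in the sources used here, their peaks are uncertain.

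In the primary TLR response, NF-kB and TLR signalling lists the R848-only shares lay at or under the 21.4% of all genes. Of 39 primary TLR response genes with a strong R848 end peak, 6 had an R848-only one (15.4%; 46.2% with only untreated peaks of −log10 q 3 or more, where all genes stood at 54.3%), among them Dusp5 (a nuclear phosphatase of ERK, fold 6.40 at 20 tags), Errfi1 (an inhibitor of EGF receptor signalling, 5.37) and Ier2 (5.05, with an untreated peak 776 bp away and a shared peak at the same gene). For 35 of the 39, Jun, Junb, Egr1, Atf3 and Dusp1 included, a strong peak was shared. In the NF-kB list the R848-only count was 5 of 24, with Nfkb1 (an NF-kB subunit precursor, 6.67 at 17 tags) and Nfkbiz (a nuclear co-regulator of NF-kB, 5.51), while Nfkbia, Tnfaip3 and Rel were shared. TLR signalling gave 4 of 26, among them Irak3 (a brake on MyD88 signalling, 5.76), Irak1bp1 (5.93) and Map2k4 (5.51). Macrophage identity genes gave 5 of 12 (41.7%). They were Clec4e (Mincle, 5.59), Lyz2 (lysozyme, 5.25, at the gene end and not the start), Lgals3 (5.16), Adgre1 (the usual macrophage surface marker, 5.09) and Itgb2 (4.90). Lyz2 and Itgb2 also had a shared strong peak at an end. Untreated peaks lay 282 bp from the Lgals3 peak and 507 bp from the Itgb2 peak.

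Not every gene list in view was inflammatory. The shares below stand beside 21.4% for all genes (1216 of 5692). JAK-STAT genes gave 6 of 23 (26.1%), led by Socs3, the feedback inhibitor of cytokine receptors (fold 6.76 at 22 tags), and Il4ra (6.12). Adenosine, cAMP and G protein genes gave 7 of 17 (41.2%), led by Crtc2, a coactivator of CREB (8.02). The Crtc2 peak also counts for the solute carrier Slc39a1. The others, named after their values were seen, were Pde7a, C3ar1, Gpr84, Fpr1, P2ry14 and Gna13. RNA processing and translation gave 10 of 51 (19.6%), cytosolic ribosomal proteins 10 of 51 (19.6%) with Rps20 at 7.78, and the respiratory chain 11 of 39 (28.2%). Cell cycle genes gave 6 of 25 (24%), among them the helicase subunits Mcm5 (8.71 at 26 tags) and Mcm6 (7.09). Cholesterol and lipid genes gave 2 of 24 (8.33%), of which Lss, lanosterol synthase, reached 8.48, and protein folding genes gave 2 of 34 (5.88%). Solute carriers gave 31 of 100 (31%), led by Slc41a3 (8.61), and Zfp zinc finger genes 41 of 140 (29.3%), led by Zfp719 (8.20). Lists overlap in their genes, and ribosomal protein genes have many processed copies, so those peaks are uncertain.

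In the remaining lists the counts were small, again to be read beside 21.4% for all genes. DNA repair gave 6 of 25 (24%), with Mre11a, a nuclease of double-strand break repair, at a fold of 6.69. Chromatin regulators gave 4 of 26 (15.4%), led by Tet3, an oxidase of methylated cytosine (7.85 at 18 tags), and Chd1, a nucleosome remodeller (5.90). Antigen presentation and co-stimulation gave 3 of 11 (27.3%), led by the death receptor Fas (6.30), and glycolysis 3 of 17 (17.6%), led by Pfkp, a phosphofructokinase (6.36). Mitochondrial import and assembly gave 6 of 28 (21.4%), mitochondrial ribosomal proteins 7 of 36 (19.4%) with Mrps24 at 6.78, and autophagy and lysosome 5 of 28 (17.9%). Apoptosis gave 3 of 16 (18.75%), among them the inflammatory caspase Casp4 (4.78), and ubiquitin and proteasome 3 of 33 (9.09%).

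**Figure D3:**
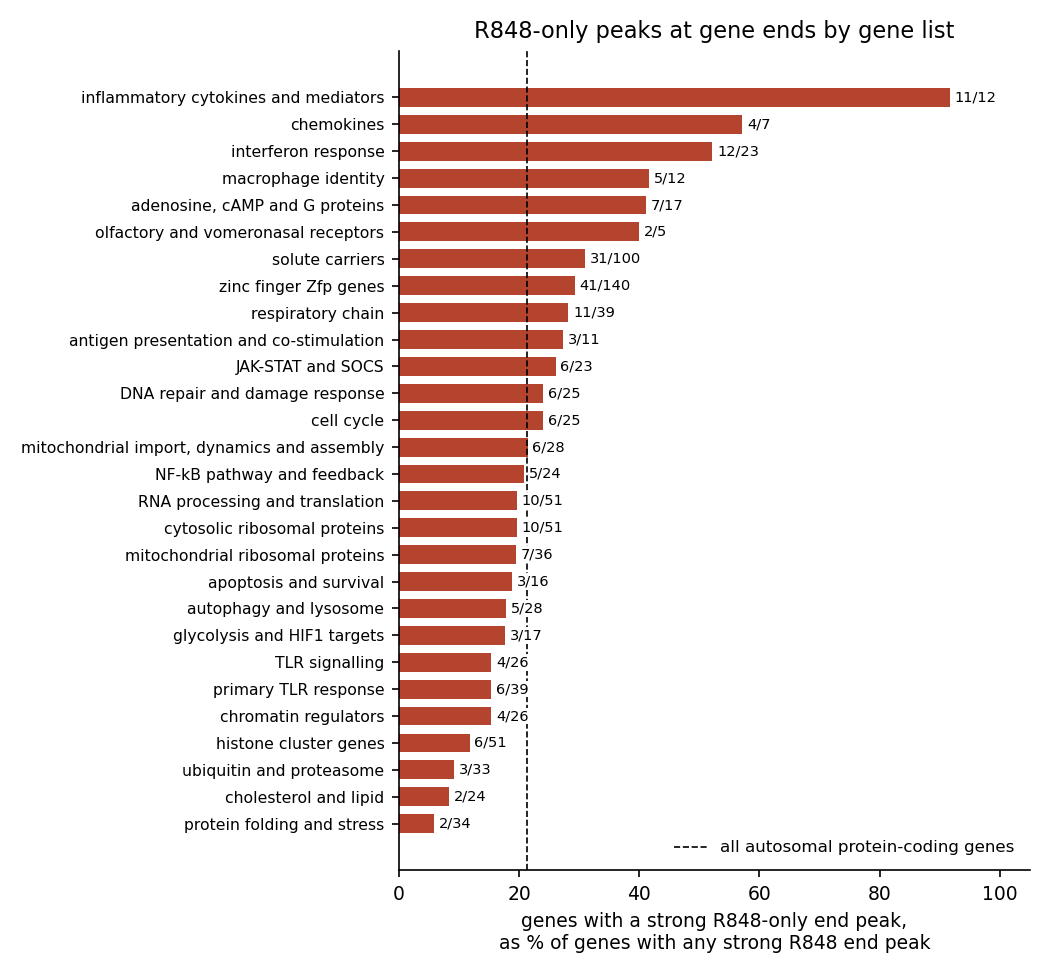
Genes with a strong R848-only peak within 1 kb of an end, as a percentage of the genes with any strong R848 peak there (x axis), for 28 gene lists (y axis); labels give the counts and the dashed line the share over all autosomal protein-coding genes, 21.4%. Cytokines and mediators reach 91.7% (11 of 12), while the primary TLR response list lies at 15.4% (6 of 39).

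The reverse peaks, strong in the untreated list at a gene end and absent from the R848 list, touched 147 of 20665 genes. None lay at a gene of the cytokine, chemokine, primary TLR response, NF-kB or TLR signalling lists. The cell cycle, RNA processing and translation, and respiratory chain lists, among others, also held none. An empty list was thus not particular to the inflammatory ones. At interferon response genes lay 2, at Ifi203 and Sp100. Ifi203 therefore had a strong peak of each kind at its ends.

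Most of the R848-only peaks lay within 1 kb of a gene start. With strand known for 79.9% of protein-coding genes, 815 of the 1059 (77.0%) reached into the 1 kb around a start, 55 (5.19%) into that around a 3′ end only, and 189 (17.8%) at genes whose strand is not in the annotation table. The class counts peaks beside the start as well as on it. Shared peaks were in the start class in 83.3% of cases and in the 3′ end class in 1.51%. Put the other way, 48.7% of the 113 strong peaks near a 3′ end only were R848-only (39.7 to 57.8%), against 20.3% of the 4012 near a start. With a −log10 q under 10 the shares were 58.0% and 30.8%. Near start pairs on opposite strands, the arrangement of bidirectional promoters, the share was 15.0% (87 of 579), against 21.2% near starts on 1 strand. With a −log10 q under 10 these were 26.6% (22.0 to 31.8%) and 31.4% (29.5 to 33.4%), and the intervals overlapped. Those strand splits and the promoter splits below were added after the data were seen.

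Where the nearest gene end was a start, the summit lay a median of 3 bp from it (quartiles -64.5 and 122.5 bp, negative meaning upstream, n = 807), against -24 bp for shared peaks (n = 3143) and -3 bp for shared peaks with a −log10 q under 10 (n = 1643). Within 250 bp lay 79.8% of R848-only and 84.6% of shared summits. The plot of summit positions shows a single hump over the start in each class.

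**Figure D4:**
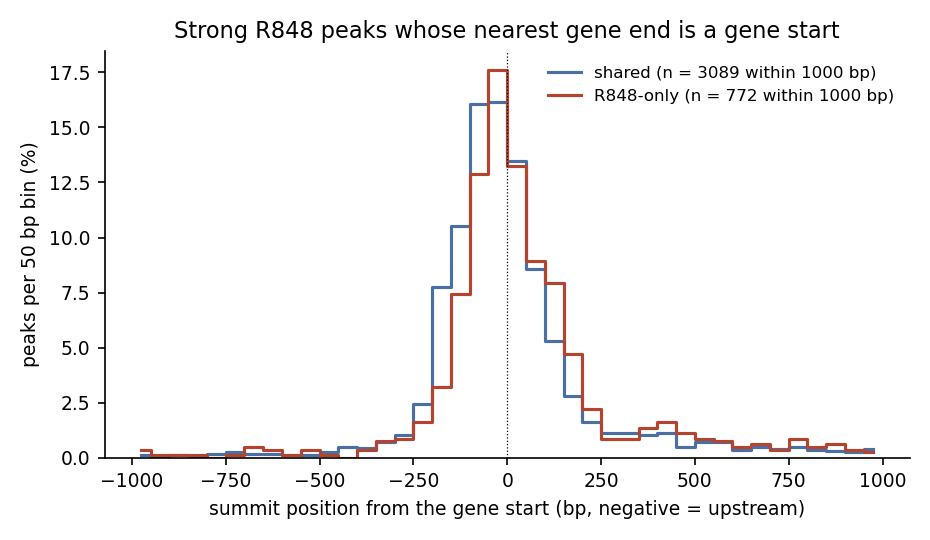
Position of peak summits relative to the nearest gene start (x axis, bp, negative is upstream) as a percentage of peaks per 50 bp bin (y axis), for strong R848-only peaks (red) and shared peaks (blue) whose nearest gene end is a start. Both classes peak beside the start, with medians of 3 bp and -24 bp.

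A few genes carried 2 of these peaks. Slc11a1 (Nramp1, the metal transporter of the macrophage phagosome) had 1 at its start (chr1:74374969-74375525, fold 6.15, 15 tags) and 1 outside its end (chr1:74386766-74387150, fold 5.18, 16 tags). Rb1cc1, an autophagy initiation protein, had peaks of fold 5.68 and 4.44 side by side near the same end of the gene, and Sgms2, a sphingomyelin synthase, peaks of 5.00 and 4.96. The widest peaks were those of Tlnrd1 (1433 bp), Maco1 (1189 bp) and St3gal4 (1175 bp), at folds between 4.84 and 5.80.

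Promoter composition was examined because the rule did not use it. The promoters under R848-only peaks (n = 724 with a sequence) had a median GC content of 60.7%, those under shared peaks (n = 3016) 63.7%, and all 20085 autosomal promoters 57%. Promoters with no peak in either list were at 52.3%. The ratio of observed to expected CpGs had medians of 0.810, 0.848, 0.586 and 0.320 in the same order. R848-only promoters thus resembled shared ones more than promoters with no peak, and 81.1% of them had a ratio of 0.6 or more, against 89.7% of the shared and 48.9% of all promoters.

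**Figure D5:**
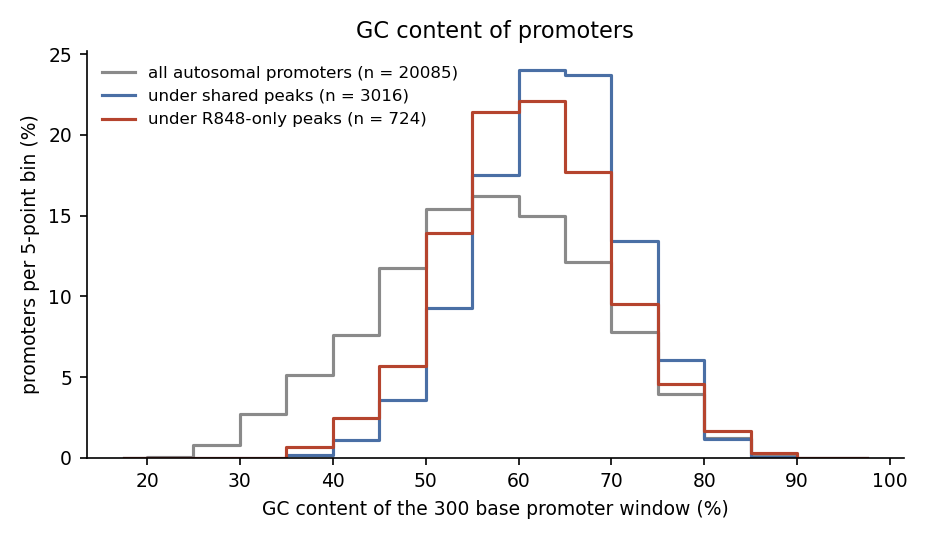
GC content of 300 base promoter windows (x axis, %) as a percentage of promoters per 5-point bin (y axis), for all autosomal promoters (grey), those under shared peaks (blue) and those under R848-only peaks (red). The red line follows the blue with a small shift to lower GC, with medians of 60.7% and 63.7%.

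The R848-only share was highest among CpG-poor promoters. With a CpG ratio under 0.3, 38 of 85 promoters with a strong peak were R848-only (44.7%, 34.6 to 55.3%), at 0.3 to 0.6 it was 99 of 362 (27.3%), and at 0.6 or more 587 of 3293 (17.8%, 16.6 to 19.2%). Keeping only peaks with a −log10 q under 10, the shares were 51.4%, 38.1% and 28.0%. Peak strength was not compared between the CpG classes, and its part in these shares was not tested. The 10 of highest fold among the 38 are named, a choice made after their values were seen. They were Klra2 (a killer lectin-like receptor with close relatives in the genome, so uncertain, fold 6.91), Apobr (an apolipoprotein B receptor, 6.78), F10 (coagulation factor X, 6.29), Ebi3 (6.25), Zfp873 (a zinc finger gene, 6.16), Pglyrp1 (a peptidoglycan-binding protein, 5.95), Ifi203 (5.93), Glrx (glutaredoxin, 5.83), Acod1 (5.62) and Camp (cathelicidin, a neutrophil granule peptide, 5.52). Neutrophil markers are among those that had strong peaks in the R848 library alone (3 of 8 against 0 of 8), and their part in this tail was not tested.

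NF-kB letters were found in 6.9% of R848-only (5.28 to 8.99%), 6.4% of shared (5.61 to 7.36%) and 5.8% of all promoters, and PU.1 letters (GAGGAAG) in 11.6%, 12.2% and 13.2%. Interferon-response letters were found in 3.9% (2.69 to 5.53%), 2.5% (1.99 to 3.11%) and 3.4%, AP-1 letters in 4.6%, 3.9% and 7.1%, and C/EBP letters (TTGCNNAA) in 7.5%, 7.3% and 10.3%. Motifs common in CpG-rich promoters were above the background of all promoters in both classes: ETS letters (CCGGAAG) stood at 23.3%, 22.6% and 11.9%, NRF1 letters at 13.3%, 15.7% and 6.5%, and CRE letters (TGACGTCA) at 4.3%, 4.4% and 2.3%. SP/KLF letters were at 66.9%, 77.4% and 47.0% and the CCAAT box at 40.9%, 48.8% and 38.1%, both lower under R848-only than under shared peaks. Among peaks with a −log10 q under 10 the SP/KLF shares were 66.7% (63.0 to 70.2%) and 73.2% (70.9 to 75.3%), while the CCAAT box intervals overlapped (37.1 to 44.6% and 42.6 to 47.6%). TATA boxes stood at 6.9%, 4.8% and 12.7%, E-boxes (CACGTG) at 10.6%, 12.6% and 7.9%, and YY1 letters (AAGATGGC) at 5.2%, 5.6% and 3.1%. ETS and PU.1 letters overlap in part, and all were searched on both strands of the 300 base windows.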

How the data were processed

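ATAC-seq had been run on 1 untreated and 1 R848 library. Reads were processed with bcl2fastq 2.19, Bowtie2 2.2.6 and MACS2 2.2.7.1 on mm10, per the submitters' processing notes, which give no settings. The deposited peak lists, 1 per library, hold a fold ratio over background, a −log10 p, a −log10 q and a score per summit, all written by the authors' peak caller. Read totals and filters are not given in the sources used here.

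Peaks were joined to protein-coding genes of RefSeq GRCm38.p6 with a minimum overlap of 1 bp. Tags and background were solved per peak from the fold, (tags + 1)/(background + 1), and the p-value, within 0.1%. Intervals are 95% Wilson. No test was run, since each group holds 1 library. Python 3.11.15, pandas 2.3.3 and scipy 1.17.1 were used, and the steps were tested on simulated data.

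The members and gene lists were chosen with earlier results of these data known, and the histone list, the strand splits and the CpG splits were added after seeing the data. Named genes were the 12 peaks of highest fold, up to 30 at response-list genes, genes with 2 or more peaks, those beside the threshold, the 6 widest, and up to 2 per other list; a few of these are not reported here. Alternatives were stricter and looser thresholds, overlap rules, distances and the sex chromosomes.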

Additional observations from a re-analysis of the deposited data

How the results depend on the processing

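The number of strong R848-only gene-end peaks, 1059, their share of strong gene-end peaks, 21.6%, and their 1216 genes moved most with what counts as an untreated partner. With only untreated peaks of −log10 q 3 or more they were 2690, 54.9% and 3091. In that setting 79.9% of the peaks were near a gene start. An untreated peak of −log10 q 3 or more lay within 1 kb of 1.64% of them. A weaker untreated peak overlapped 1631 of them. Of genes with a strong R848 end peak, the base of every gene share here, 54.3% were then R848-only. Cytokine genes stood at 100% (12 of 12) and interferon response genes at 78.3% (18 of 23). With the untreated list cut to the length of the R848 list they were 1629, 33.3% and 1868. An untreated peak kept in the cut list lay within 1 kb of 4.54% of the peaks. Where an untreated peak had to cover at least 50% of the R848 peak they were 1893, 38.6% and 2205. Any untreated peak then overlapped or lay within 1 kb of 49.6% of the peaks. In that setting 7 of the 7 chemokine genes with a strong R848 end peak were R848-only. The primary TLR response share, 15.4%, was 46.2%, 30.8% and 38.5% under these 3 rules in turn. All genes stood at 54.3%, 32.8% and 38.7% under the same rules. With untreated peaks within 500 bp counted as partners the share was 20.4%, and 4.5% had one within 1 kb. A −log10 q of at least 5 gave 511 peaks, 13.9%, 595 genes and 7 of 7 cytokine genes. Interferon response genes then fell from 52.2% to 37.5% (6 of 16) and chemokine genes from 57.1% to 40% (2 of 5). All genes stood at 13.6% at that limit. A −log10 q of at least 2 gave a peak share of 26.7%. Windows of 2 kb put 74.1% of peaks near a start. Windows of 500 bp, or a summit within 1 kb, put the cytokine share at 100% (8 of 8 and 10 of 10 genes). The cause was not tested. Adding X and Y moved none of these values beyond counting error. Over all 10 settings the cytokine share, recomputed after seeing the data, lay between 83.3% and 100%, and the median promoter GC content at each −log10 q limit tried was 60.7%. Leaving out a replicate was not run, since each group had 1 library. No paired analysis was possible because each group had 1 library.

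Summits with 10 to 12 tags, 53.9% of the set, limit what can be read from any single peak, and absence from the untreated list does not show that the site was closed. Read totals are not given in the sources used here.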

Other observations

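Histone cluster genes, a list added after the data were seen, had 51 genes with a strong R848 end peak. Of these, 6 had an R848-only one (11.8%, against 21.4% over all genes). The 6 genes carry 4 peaks, and 3 of the 6 also had a shared strong peak at an end. The strongest 2 peaks lay near the 3′ ends of linker histone genes: H1f4 (fold 6.30, 15 tags, an untreated peak 420 bp away) and H1f3 (4.80, 11 tags, an untreated peak 37 bp away). The H1f4 peak also lay within 1 kb of an end of H2bc6. Of 1458 olfactory and vomeronasal receptor genes, which macrophages hardly express, 2 had an R848-only end peak (0.137%, against 5.88% of all genes). Only 5 of the 1458 had any strong R848 end peak. On that base, used for the other lists, the count was 2 of 5 (40%, against 21.4%). The 2 were Olfr433 (fold 5.41) and Olfr111 (4.55), both more than 1 kb upstream of the start by summit. Olfr111 also had a shared strong peak at an end. These families hold near-identical copies, so the assignments are uncertain.

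By chromosome, the R848-only share of strong gene-end peaks ran from 14.7% on chromosome 16 to 27.8% on chromosome 19.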
